A study of Mus musculus with 6 samples.

Results

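The cytosolic ribosomal protein genes were examined in regulatory T cells (Treg) that lack the histone deacetylase HDAC9. A gene was a member if the platform annotation gave its probe set the single symbol Rpl or Rps followed by a number, or Rplp0, Rplp1, Rplp2 or Rpsa. Ribosomal S6 kinases, binding proteins and pseudogenes were left out, and each gene was read from its probe set with the highest mean. These rules gave 47 genes out of 12393, namely 22 of the large subunit, 20 of the small subunit and 5 paralogs, and the 47 genes had 99 probe sets of their own.

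The RNA came from CD4+CD25+ T cells isolated with magnetic beads from mice. One group was 3 samples from HDAC9-/- mice and the other was 3 wild type samples, and both genotypes were on the C57BL/6 strain. Each sample went onto 1 array, and the values are log2 signals. The samples are described as independent. The sources used here give neither the age of the mice, nor the part of Hdac9 that was deleted, nor whether each sample was taken from a mouse of its own, so a p-value here reflects sample-to-sample spread, which may be technical. Precision is limited by having 3 arrays in each group.

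The ribosome has a small subunit, which decodes the messenger RNA, and a large subunit, which joins amino acids into protein, and each carries its own set of ribosomal proteins around ribosomal RNA. Resting T cells make few ribosomes and increase their production sharply when they are activated, under control of Myc and the kinase mTOR. Ribosomal protein mRNAs begin with a C followed by a run of pyrimidines, the terminal oligopyrimidine (TOP) tract, through which mTOR and the RNA-binding protein Larp1 control their translation without a change in mRNA level.

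The start sites of 6 members and 1 paralog are shown as examples with and without a TOP-like motif at or near the annotated start, and because Rps25 and Rpl14 had the largest positive differences reported below. The sequences are from RefSeq (GRCm38.p6) and run 5′ to 3′ from 30 bases before the annotated start to 30 bases after it. Capitals mark 3 TOP-like motifs, searched on the transcribed strand only, which may overlap each other: the motif CTTTCC, the motif CTTCCT and the motif CTCTTT.
Rps6: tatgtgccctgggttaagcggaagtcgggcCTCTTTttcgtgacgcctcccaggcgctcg
Rps10: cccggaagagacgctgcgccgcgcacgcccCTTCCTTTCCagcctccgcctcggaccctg
Rps25: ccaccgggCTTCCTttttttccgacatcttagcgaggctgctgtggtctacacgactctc
Rpl38: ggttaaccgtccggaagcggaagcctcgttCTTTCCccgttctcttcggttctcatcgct
Rpl35: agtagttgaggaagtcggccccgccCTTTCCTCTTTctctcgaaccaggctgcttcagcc
Rpl14: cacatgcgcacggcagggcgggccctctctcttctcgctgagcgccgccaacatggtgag
Rpl22l1: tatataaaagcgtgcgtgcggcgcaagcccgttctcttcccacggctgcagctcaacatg
They lie at chr4:86857338-86857397 (minus strand, Rps6), chr17:27635215-27635274 (minus, Rps10), chr9:44407684-44407743 (plus, Rps25), chr11:114668550-114668609 (plus, Rpl38), chr2:39005102-39005161 (minus, Rpl35), chr9:120571487-120571546 (plus, Rpl14) and chr3:28805478-28805537 (plus, Rpl22l1). In Rps6, Rps10 and Rpl38 the motif begins at the first transcribed base of the annotation, and in Rps25 and Rpl35 it begins before that base. The windows of Rpl14 and Rpl22l1 hold none of the 3 motifs. Rpl14 nevertheless begins with a C and a run of pyrimidines (cttctc) at the annotated start. In Rpl22l1 a pyrimidine run (ttctcttccc) follows the first base. The absence of these 3 motifs therefore does not show that a gene lacks a TOP tract.

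RefSeq promoters were found for 42 of the 47 members. A TOP-like motif lay in this window of 15 of 43 promoters of members other than paralogs (34.9%) and of 1 of 7 paralog promoters, against 8.62% of 21263 protein-coding promoters. The core CCGGAAG of ETS family factors such as Gabpa, searched on both strands from 250 bases before to 50 after the start, was in 19 of the 43 promoters (44.2%) and in 11.6% of all. The Yy1 motif AAGATGGC, on both strands of the same span, was in 3 of 43 (6.98%) against 3.05%, and TATAAA on the transcribed strand was in 4 of 43 (9.30%) against 8.26%. These matches describe letters in a window, and annotated starts can be off by a few bases from those used in Treg.

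Treg markers were bright in both genotypes. Foxp3, the lineage factor, read 10.29 to 10.38 in wild type arrays and 10.33 to 10.44 in HDAC9-/- arrays. Il2ra, which encodes CD25, read 9.45 to 9.54 in wild type arrays and 9.34 to 9.42 in HDAC9-/- arrays. Its groups did not overlap, as for 5.70% of all genes in the lower direction, and the difference was -0.08 (SE 0.07). Ikzf2, which encodes Helios, was the dim one of 7 markers, with a mean of 4.97. Wild type replicate 3 stood apart, with a mean correlation of 0.991 with the other arrays against 0.994 to 0.996 for the rest, so results are also given without it. All 15 myeloid markers had positive differences between HDAC9-/- and wild type, with a median of 0.36, and 0 passed the test described next. Of the 15, 8 had an unadjusted p below 0.05 by limma, all higher (53.3%, against 6.12% of all genes in that direction). Groups did not overlap for 7, again all higher (46.7%, against 12.5% of all genes). Ngp (1.38), Camp (1.41) and S100a8 (0.96) were among these 7. Lyz2, Csf1r, Fcgr3 and Adgre1 had overlapping groups, and HDAC9-/- replicate 3 was the lowest array for Csf1r and Fcgr3. S100a9, a neutrophil protein, read 9.94 to 10.99 in wild type arrays and 11.49 to 11.75 in HDAC9-/- arrays, while Itgam, Mpo, Cd14 and Elane stayed below 5 on every array. The mean deviation of the 15 markers from their 6-array means lay between -0.60 and -0.08 on wild type arrays and between 0.03 and 0.45 on HDAC9-/- arrays, and the part of these cells in the ribosomal protein values was not tested. In bulk samples, fewer cells of a type and less RNA per cell cannot be told apart.

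Ribosomal protein genes had almost the same signal in both genotypes. None of the 47 passed an adjusted p of 0.05 (limma, adjusted over all 22626 probe sets), where 0.00807% of all genes passed, and 2 had an unadjusted p below 0.05, which is 4.26% of the members against 8.74% of all genes. Both were higher in HDAC9-/- samples, as were 6.12% of all genes at that p. The smallest adjusted p among the 47 members was 0.505 by limma. The fit shares the spread between probe sets, so the standard error of every member was at least 0.059. Small differences could hardly reach an unadjusted p of 0.05, so the lower share is no result about the members. A trended and robust prior gave 5 of the 47 members such a p, against 11.0% of all genes. The median difference, HDAC9-/- minus wild type, was 0.01 for the members and 0.01 for all genes on the log2 scale. The difference was below 0.1 in size for 40 of the 47 members (85.1%) against 54.7% of all genes. For 37 members (78.7%) the whole 95% confidence interval lay between -0.25 and 0.25, against 24.6% of all genes. Of the 127 genes with a mean of 12 or more, bright members included, 74% had such an interval.

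The sign of the small differences depended on how the arrays were scaled. As deposited, 30 members had positive and 17 negative differences (63.8% positive, against 54.0% of all genes), and with array medians aligned 20 were positive and 27 negative. The median turned from 0.011 to -0.015, as that of all genes turned from 0.013 to -0.012. Without wild type replicate 3 the median was 0.017, with 33 positive and 14 negative differences, and 0 members passed.

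**Figure D1:**
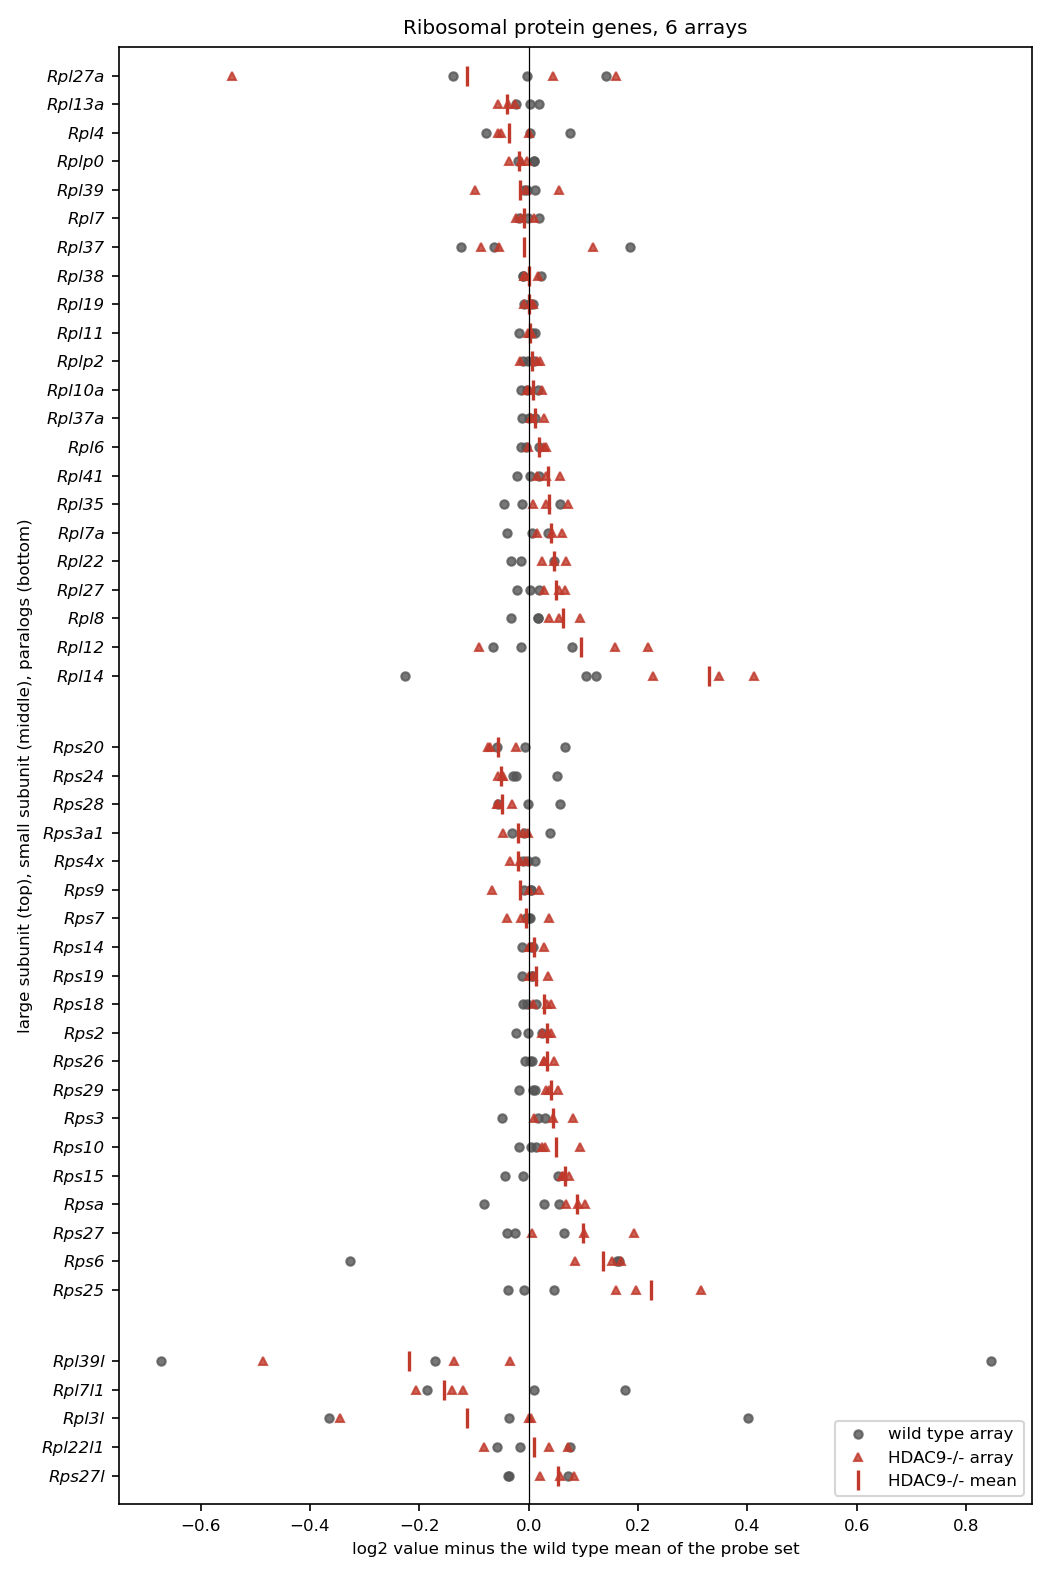
Log2 value of each array minus the wild type mean of the same probe set (horizontal axis) for the 47 ribosomal protein genes, in rows by subunit; grey circles are the 3 wild type arrays, red triangles the 3 HDAC9-/- arrays and red bars their mean. The means of the bright members lie within 0.1 of 0, while the widest spread belongs to the dim paralogs Rpl39l and Rpl3l and to Rpl27a.

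The signal of most members was close to the top of the array's range. The mean over 6 arrays was 12 or more for 35 members and 13 or more for 33, out of 52 genes on the array at 13 or more, and the brightest values on the arrays were 14.27 to 14.32. The 35 bright members spanned differences of -0.06 to 0.09, all with 95% intervals between -0.25 and 0.25. Their replicates were tight, with a median SD of 0.02 in each genotype (n = 3) against 0.11 in wild type and 0.09 in HDAC9-/- over all genes. Array signal flattens at such brightness, and its part in these small differences was not tested. Over all 127 genes at 12 or more, members included, 81.1% had differences below 0.1 in size and the range was -0.53 to 0.21.

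**Figure D2:**
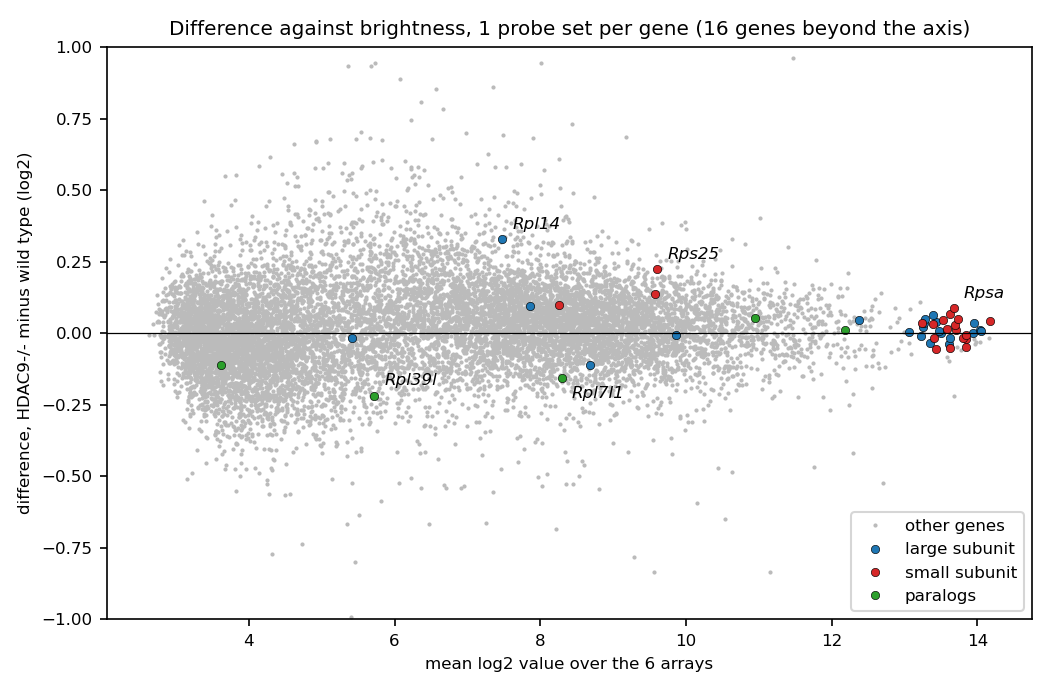
Difference between HDAC9-/- and wild type (log2, vertical axis) against the mean log2 value over the 6 arrays (horizontal axis) for 12393 genes, with ribosomal protein genes coloured by subunit and 16 genes beyond the axis limits. The bright members form a flat cluster near 0, and Rpl14 and Rps25 lie above it at lower brightness.

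In the large subunit, Rpl14 had the largest difference of any member, and the others were within 0.12 of 0. The 22 genes, which include the stalk proteins, had 15 positive and 7 negative differences and a median of 0.01. Rpl14, a protein on the solvent side of the subunit, read 7.43, 7.42 and 7.09 in wild type samples and 7.66, 7.54 and 7.72 in HDAC9-/- samples, each in the order of replicates 1 to 3. Every HDAC9-/- array was above every wild type array, by 0.11 at the nearest pair, and wild type replicate 3 was the lowest. The difference was 0.33 (SE 0.11), a 1.26-fold higher mean, and did not pass (adjusted p = 0.531 by limma). Rpl12, at the base of the stalk, had a difference of 0.10 with overlapping groups.

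Rpl8, which lies close to the peptidyl transferase centre, read 13.38, 13.38 and 13.33 in wild type and 13.42, 13.40 and 13.46 in HDAC9-/- samples, a difference of 0.06 whose groups did not overlap. Rpl27 had means of 13.26 ± 0.02 and 13.31 ± 0.02 (SD, n = 3), also without overlap. Rpl13a, which can leave the ribosome to silence inflammatory mRNAs in myeloid cells, read 13.61, 13.64 and 13.65 in wild type and 13.59, 13.61 and 13.58 in HDAC9-/- samples. Its groups did not overlap either, and the HDAC9-/- arrays were the lower ones, by only 0.002 at the nearest pair. The 4 probe sets of Rpl13a had differences from -0.09 to 0.01. Groups did not overlap for 9 of all 47 members in the higher direction (19.1%, against 12.5% of all genes) and for 2 in the lower (4.26% against 5.70%). With array medians aligned these counts were 3 and 1, against 8.88% and 6.54% of all genes. In the deposited values, groups of the 35 bright members did not overlap for 7 in the higher direction (20%) and 2 in the lower (5.71%). Of all 127 genes with a mean of 12 or more, members included, the shares were 18.9% and 11.8%, so the higher share was near that of equally bright genes.

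Rpl11, which with Rpl5 binds and restrains Mdm2 when ribosome assembly fails, read 13.07, 13.06 and 13.04 in wild type and 13.06, 13.05 and 13.06 in HDAC9-/- samples. The 6 arrays differed by less than 0.03, and the 95% interval of the difference ran from -0.14 to 0.14. Rpl38, known for its part in translating Hox mRNAs in the embryo, had 13.94 ± 0.02 in wild type and 13.94 ± 0.01 in the knockout (SD, n = 3). Rpl35, at the exit of the nascent chain, had a difference of 0.04 (SE 0.07). Rpl27a read 8.74, 8.88 and 8.60 in wild type and 8.78, 8.90 and 8.20 in HDAC9-/- samples, so its difference of -0.11 rests on HDAC9-/- replicate 3, the lowest array, and was 0.10 without it.

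The stalk of the large subunit, which recruits elongation factors, is built from Rplp0 and dimers of Rplp1 and Rplp2. Rplp0 read 13.65, 13.62 and 13.65 in wild type and 13.60, 13.62 and 13.63 in HDAC9-/- samples, a difference of -0.02 with a 95% interval of -0.16 to 0.13. Rplp2 read 14.05, 14.04 and 14.04 in wild type and 14.03, 14.06 and 14.07 in HDAC9-/- samples. The groups overlapped for both genes. Rplp1 has no probe set with its symbol alone, and the probe set it shares with Gm13777 had a difference of 0.02.

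In the small subunit, Rps25 was the member with the smallest p-value, and the bright members again lay close to 0. The 20 genes had 13 positive and 7 negative differences and a median of 0.03. Rps25, which is needed for initiation on several viral internal entry sites, read 9.45, 9.48 and 9.54 in wild type and 9.81, 9.65 and 9.69 in HDAC9-/- samples. The groups were 0.11 apart at their nearest arrays. Its difference was 0.22 (SE 0.07), a 1.17-fold higher mean, and did not pass (unadjusted p = 0.0174, adjusted p = 0.505 by limma). With a trended and robust prior, 5 members had an unadjusted p below 0.05 (Rps25, Rpl14, Rpsa, Rps15 and Rpl8), against 11.0% of all genes, and 0 passed.

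Rpsa, also known as the laminin receptor precursor, read 13.66, 13.68 and 13.55 in wild type and 13.72, 13.73 and 13.70 in HDAC9-/- samples. The groups did not overlap, and wild type replicate 3 was again the lowest array. Its difference of 0.09 was the largest of the bright members and corresponds to 1.06-fold. Rps15, which reaches into the decoding centre, read 13.64, 13.58 and 13.54 in wild type and 13.66, 13.65 and 13.65 in HDAC9-/- samples, a gap of under 0.01 between the nearest arrays. Rps10, which carries the TOP-like motif shown above at its start, had 13.70 ± 0.02 and 13.75 ± 0.04 (SD, n = 3) without overlap, and Rps26 and Rps29 were the other members of this kind, with differences of 0.03 and 0.04.

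Rps24, a gene mutated in some families with Diamond-Blackfan anaemia, read 13.63, 13.63 and 13.71 in wild type and 13.61, 13.61 and 13.60 in HDAC9-/- samples. It was lower in HDAC9-/- without overlap, by 0.02 at the nearest pair of arrays, and its difference was -0.05. Rps20 and Rps28 had differences of -0.06 and -0.05 with overlapping groups. Rps19, the gene most often mutated in that anaemia, read 13.57 to 13.59 in wild type arrays and 13.58 to 13.61 in HDAC9-/- arrays. Rps14, whose loss underlies the anaemia of the 5q- syndrome in humans, had a difference of 0.01 (SE 0.06). Rps9 had a difference of -0.02.

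Rps6, the substrate of the S6 kinases downstream of mTOR, read 9.18, 9.68 and 9.67 in wild type and 9.60, 9.66 and 9.68 in HDAC9-/- samples. Wild type replicate 1 was the one low array. The difference was 0.14 (SE 0.14) and was -0.03 without that array, so the direction in this probe set rests on it. The other probe set with the Rps6 symbol alone was dim, with a mean of 4.07. Its difference was 0.20 (SE 0.08) without overlap, as for 5.36% of all probe sets with a mean below 6 in the higher direction. Rps27, a zinc-binding protein of the subunit, had 8.21 ± 0.06 and 8.31 ± 0.09 (SD, n = 3) with overlapping groups.

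The 5 paralogs are relatives of ribosomal protein genes. Rpl22l1 stands in for Rpl22, a protein that developing alpha-beta T cells need. Rpl22 read 12.40, 12.32 and 12.34 in wild type and 12.39, 12.42 and 12.37 in HDAC9-/- samples, and Rpl22l1 read 12.13, 12.17 and 12.26 in wild type and 12.10, 12.22 and 12.26 in HDAC9-/- samples. Neither gene separated the genotypes, and the 95% intervals of the differences ran from -0.10 to 0.20 for Rpl22 and from -0.17 to 0.19 for Rpl22l1. Rps27l, a p53 target, had a difference of 0.05 with an interval of -0.11 to 0.21.

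Rpl39l, used mainly in male germ cells, read 6.67, 5.65 and 5.15 in wild type and 5.69, 5.79 and 5.34 in HDAC9-/- samples. Its wild type arrays alone spanned 1.52, so the difference of -0.22 (SE 0.36) is well inside the spread, and it was 0.20 without wild type replicate 1. Rpl3l, a copy used in striated muscle, read 3.31 to 4.08 over all arrays, at the bottom of the range, with a difference of -0.11. Rpl7l1 read 8.55, 8.38 and 8.18 in wild type and 8.25, 8.16 and 8.23 in HDAC9-/- samples, a difference of -0.16 with overlapping groups (adjusted p = 0.664 by limma). It was the single member whose groups were apart in the lower direction once array medians were aligned. Its other probe set, nearly as bright with a mean of 7.99, had a difference of 0.03 (SE 0.11).

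The largest positive differences came from dim probe sets, and brighter probe sets of the same genes had smaller ones. For 8 genes other than paralogs, the probe set carrying the symbol alone had a mean below 12, while a bright probe set names the same gene beside others, such as Rpl14-ps1 beside Rpl14. For Rpl14 the bright probe set (1438626_x_at, mean 12.71) had a difference of 0.04 with a 95% interval of -0.10 to 0.19, against 0.33 and 0.06 to 0.60 in its own probe set (1422128_at). For Rps25 the bright probe set (1451068_s_at, mean 12.81) had 0.01 with an interval of -0.15 to 0.17, against 0.22 and 0.05 to 0.39 in 1430978_at. Over all 5 shared probe sets of Rpl14 the differences ran from -0.08 to 0.06. For Rps6 the brightest shared probe set read 14.21 on average and had a difference of 0.02, against 0.14. The other shared probe sets of Rps6 were all negative, 8 of 9 in all, down to -0.16, and 2 of them did not overlap in the lower direction while the brightest did not overlap in the higher. For Rps27, Rpl12 and Rpl27a the brightest shared probe sets had 0.01, -0.03 and -0.03, and for Rpl37 and Rpl39 they had 0.00 and -0.07. With such shared probe sets admitted, a choice made after seeing the data, 44 of the 47 members had differences below 0.1 in size, 0 passed, and the median was 0.007. Signals of a pseudogene and its parent cannot be told apart on these probe sets.

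**Figure D3:**
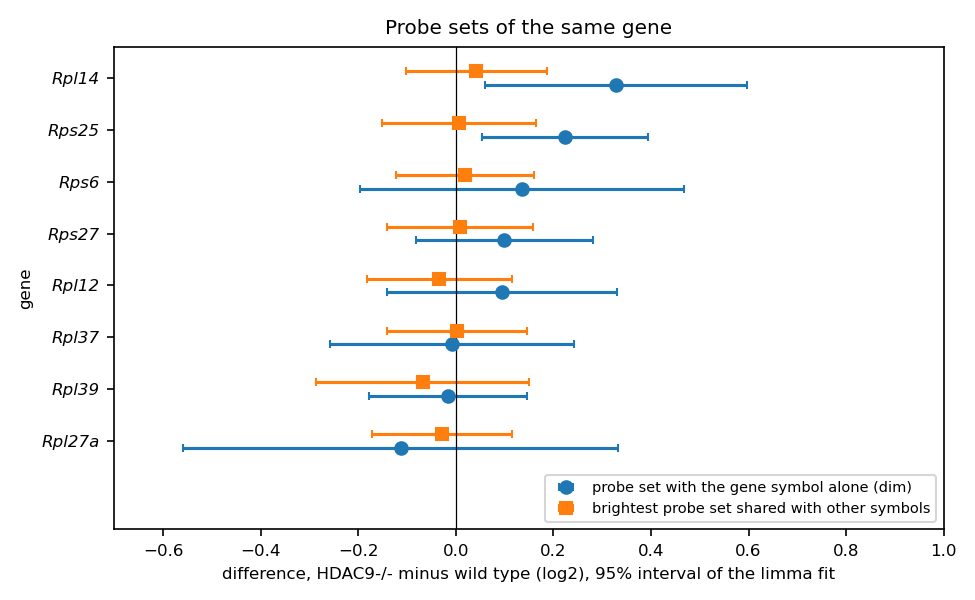
Difference between HDAC9-/- and wild type (log2, horizontal axis, bars are 95% intervals of the limma fit) for 8 ribosomal protein genes, from the dim probe set with the gene symbol alone (circles) and the brightest probe set shared with other symbols (squares). Rpl14 and Rps25 lie above 0 in their dim probe sets, and all 8 shared probe sets have intervals that include 0.

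Several probe sets of a gene also differed among themselves. Of 23 members with more than 1 probe set of their own, 15 had differences of both signs. The 6 probe sets of Rps24 had differences from -0.05 to 0.33, the highest in a probe set with a mean of 5.34, and the other 5 lay between -0.05 and -0.02. The 6 probe sets of Rpl35 ran from 0.02 to 0.27, again highest in a dim one with a mean of 4.09. The range was -0.17 to 0.14 for Rps20 and -0.18 to 0.07 for Rps9.

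A further 28 ribosomal protein symbols occur only on shared probe sets, of which the array has 102 in all. None of the 102 passed (limma, where 0.0133% of all probe sets did), and 6 had an unadjusted p below 0.05 (5.88%, against 8.78% of all probe sets), 4 higher and 2 lower. The limit that the shared spread sets on small p-values holds for these mostly bright probe sets too. Rpl10, mutated in some T cell leukaemias, had differences of 0.02 and less than 0.01 in size in its 2 probe sets. Rpl5, which shares its probe sets with Rpl5-ps2, had a bright one with 13.97 ± 0.01 in wild type and 13.96 ± 0.01 in the knockout (SD, n = 3). Its other probe sets were dim and higher in HDAC9-/- samples: 1423666_s_at read 7.63, 7.71 and 7.65 in wild type and 7.95, 8.05 and 8.11 in HDAC9-/- samples, 0.37 apart in the mean (unadjusted p = 0.00126, adjusted p = 0.362 by limma), and 1451077_at had a difference of 0.29. The groups of both dim probe sets were well apart, while those of the bright one overlapped. The probe set shared by Rps19 and its pseudogene Rps19-ps3 (1460442_at) had the widest difference of any that names a ribosomal protein gene. It read 5.31, 5.48 and 5.18 in wild type and 3.85, 4.26 and 4.50 in HDAC9-/- samples, which gives -1.12 (SE 0.17) and did not pass (adjusted p = 0.301 by limma). The Rps19 probe set with that symbol alone had a difference of 0.01. The Gapdh control probe sets also separated the genotypes. The 3-prime one exceeded the 5-prime one by 0.03 to 0.11 on wild type arrays and by 0.15 to 0.28 on HDAC9-/- arrays, and the part of this in the dim probe sets was not tested. The same measure for actin overlapped, at 0.33 to 0.46 on wild type arrays and 0.42 to 0.60 on HDAC9-/- arrays.

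Genes that build, start or control ribosomes were described from lists. Ribosome biogenesis genes, which make ribosomal RNA and assemble the subunits in the nucleolus, had a median difference of 0.06, with 44 positive and 18 negative among the 62 that were measured. None passed over all probe sets, and 6 had an unadjusted p below 0.05, all higher (9.68%, against 6.12% of all genes that were higher at that p). Groups did not overlap for 16 in the higher direction (25.8%, against 12.5% of all genes) and for 0 in the lower (against 5.70%). With all probe sets of each gene averaged these counts were 14 and 2, and the share over all genes in that setting is not given here. The means of the listed genes ran from 6.35 to 12.61. Of all 10440 probe sets with a mean of 6 to 12, 17.2% did not overlap in the higher direction and 6.65% in the lower. Of those 10440, 58.2% had positive differences, and 834 were higher at an unadjusted p below 0.05 by limma. Wdr12, a member of the PeBoW complex of large subunit assembly, read 8.29, 8.42 and 8.34 in wild type and 8.57, 8.59 and 8.54 in HDAC9-/- samples, 0.21 higher (SE 0.07) without passing (adjusted p = 0.496 by limma). Its PeBoW partner Pes1 had 0.16, Nop16 0.22 and Utp20, of the small subunit processome, 0.20. The lowest array for the list was wild type replicate 3, with a median deviation of -0.08 from the 6-array means, and without it the median difference was 0.03 with 37 of 62 genes positive. With array weights the median was also 0.03.

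Other mRNAs with a TOP tract, mostly elongation and initiation factors, resembled the ribosomal proteins in size of difference. All 18 measured genes had differences below 0.1 in size, 12 positive and 6 negative, with a median of 0.02 that turned to -0.007 with array medians aligned. Eif4a2 (-0.08) and Btf3 (0.06) had the smallest p-values, and none passed. Averaging all probe sets of a gene gave -0.009. Fau, which encodes a ubiquitin-like protein fused to ribosomal protein S30, was the only one of 3 ribosomal proteins outside the naming rule with a probe set of 1 symbol, and its difference was 0.02. The other translation factors had 16 positive and 10 negative differences, and no gene that passed. Their median of 0.02 turned to -0.002 with array medians aligned and to -0.005 with all probe sets averaged. Etf1, the release factor, had 0.21 and Eif3i 0.17.

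**Figure D4:**
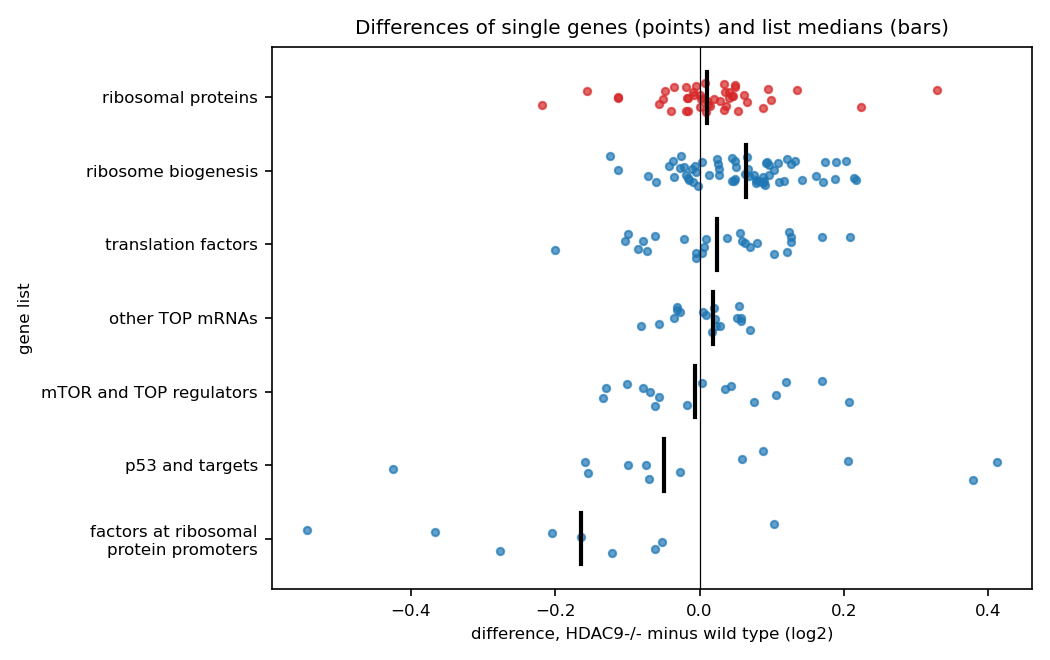
Difference between HDAC9-/- and wild type (log2, horizontal axis) of each gene in 7 lists (points, spread vertically for visibility) with the list median (bars). Ribosomal proteins and other TOP mRNAs lie close to 0, ribosome biogenesis genes have a median of 0.06, and the 9 factors that act at ribosomal protein promoters have a median of -0.16.

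Among transcription factors with a known part at ribosomal protein promoters, 8 of 9 had negative differences and the median was -0.16. Over all genes, 5696 of 12393 had negative differences. None passed over all probe sets, and the median was -0.04 when all probe sets of each gene were averaged. Yy1, which binds downstream of many ribosomal protein start sites, read 10.13 to 10.20 on wild type arrays and 9.98 to 10.03 on HDAC9-/- arrays. Every HDAC9-/- array was lower, and the difference was -0.16 (SE 0.06; unadjusted p = 0.0348, adjusted p = 0.549 by limma). With all probe sets of each gene averaged, 0 of the 9 genes, Yy1 among them, had groups that did not overlap, and 2 had positive differences. Sp1 had -0.54 (SE 0.24) and overlapping groups, and Gabpb1, a partner of Gabpa, was the 1 gene with a positive difference (0.10).

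The mTOR pathway and the regulators of TOP mRNAs had 8 positive and 8 negative differences and a median of -0.01. The median was 0.02 once dim probe sets were dropped, -0.03 with array medians aligned and -0.05 with all probe sets averaged. No gene was past the threshold. Eif4ebp1, a translation inhibitor that mTOR inactivates, had 0.21 and Rraga, a GTPase that carries amino acid signals to mTOR, had 0.17. Genes of p53 and its targets, which respond when free ribosomal proteins block Mdm2, had 5 positive and 7 negative differences and a median of -0.05 that was 0.00 without wild type replicate 1. Pmaip1 (0.38) and Ccng1 (-0.15) had the smallest p-values, and 0 of the 12 genes passed.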

How the data were processed

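The authors deposited log2 expression values made with RMA, per the submitters' processing notes, for 6 arrays (3 of each genotype, grouped by sample title). No source used here gives the settings of RMA. The 22626 probe sets other than 64 controls entered the fit with no filter. Of these, 20380 carry 1 symbol, 691 several and 1555 none; symbols were updated by Entrez identifier through RefSeq (GRCm38.p6).

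Genotypes were compared with limma 3.58.1 in R 4.3.3 (lmFit, eBayes) over all probe sets, with Benjamini-Hochberg adjustment and a threshold of 0.05. limma shares the spread between probe sets, so the standard errors of bright members exceed their own replicate spread. The fit was tested on simulated data whose changes were larger than the difference of any member, so that test does not cover differences of the members' size. The members and lists were chosen with earlier results of these data known. Named are the 6 members with the largest and the 6 with the most negative difference, the 6 further ones with the smallest p, a fixed set of known genes, the 4 whose probe sets differ most, and 2 to 4 genes per list. Other members, Gabpb1, and the shared probe sets of Rpl5 and Rps19, were named after their values were seen. Markers of B, plasma, CD8 T, natural killer and red cells were also measured. Alternatives were renormalization, brightness filters, other priors, array weights, the replicate block and left-out arrays. Figures were drawn with matplotlib 3.10.9.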

Additional observations from a re-analysis of the deposited data

How the results depend on the processing

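No ribosomal protein gene passed the adjusted threshold under any alternative of the fit, and 2 (Rps25 and Rpl14) had an unadjusted p below 0.05. In the limma fits, Rps25 missed it with array medians aligned (unadjusted p = 0.0583) and Rpl14 with the replicate block (unadjusted p = 0.0524). With 1 array left out, the unadjusted p by limma was 0.0171 to 0.061 for Rps25, missing without wild type replicate 1 or HDAC9-/- replicate 1, and 0.0221 to 0.0752 for Rpl14, missing without HDAC9-/- replicate 1 or 3. The brighter probe set of Rpl7l1 had one by limma with array weights (unadjusted p = 0.0225) and without wild type replicate 3 (unadjusted p = 0.02), lower in HDAC9-/- samples. With a trended and robust prior 5 had one (Rps25, Rpl14, Rpsa, Rps15 and Rpl8), where 11.0% of all genes did. The median difference of the members was -0.0152 with array medians aligned, 0.0214 with array weights, 0.0019 with the probe sets of each gene averaged, and 0.0055 to 0.0173 with 1 array left out. In the fit with array medians aligned, groups did not overlap for 3 members in the higher direction and 1 in the lower. The shares over all genes were 8.88% and 6.54%. Averaged probe sets gave Rpl8, Rpl14, Rpl35, Rps6, Rps15, Rps25 and Rps26 as higher without overlap and 0 as lower. Leaving 1 array out gave counts of 12 to 13 and 3 to 5, where fewer arrays make separation easier. Shares over all genes are not given for averaged probe sets or left-out arrays, so those counts are no result about the members. Over the whole array, 3 probe sets passed. The count was 15 with the trended and robust prior, 6 with array weights, 5 at an adjusted p of 0.10, 1 with the brightest 10% alone, with 1 probe set per gene or with their mean, and 0 to 6 with 1 array left out. With the replicate block 0 probe sets and 0 members passed; same-numbered arrays did not deviate together (correlations of 0.036, 0.099 and -0.249), and 1 of 6 arrays correlated best with its own number. Of 28 named members, 14 kept their sign in every alternative. Dim members had a median replicate SD of 0.15 in wild type against 0.02 for bright ones, which limits what could be detected in them.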

Other observations

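Markers of other cells that magnetic separation can leave were measured beside the ribosomal protein genes. CD8 T cell and natural killer markers had a median difference of 0.24, positive for 7 of 9, and 0 passed. Eomes, a factor of cytotoxic and memory T cells, had a difference of 0.24 and Gzmk, a granzyme, 0.42. Prf1 (-0.10) and Nkg7 (-0.06) were the negative ones. The mean deviation of the list from the 6-array means was 0.29, 0.13 and -0.11 on HDAC9-/- arrays 1 to 3. On wild type arrays it lay between -0.18 and -0.04. B cell markers had a median of 0.065 over 7 genes, with Pax5 at -0.23 and Blnk at 0.26. Plasma cell markers had a median of -0.03 over 4 genes, and Jchain, which links secreted antibodies, was the lowest with -0.47 (limma, adjusted p = 0.337), Sdc1 had -0.05, Prdm1 0.02 and Tnfrsf17 -0.01. Red cell and platelet markers had a median of -0.04 over 6 genes, with Ppbp at 0.08 and Slc4a1 at -0.20.

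All 201 probe sets that name a ribosomal protein gene, alone or with others, were set beside all probe sets of like brightness. Of 43 with a mean of 6 to 12, groups did not overlap in the higher direction for 7 (16.3%) and in the lower for 1 (2.33%), against 17.2% and 6.65% of 10440. Of 135 with a mean of 12 or more, they did not overlap in the higher direction for 25 (18.5%), against 61 of 308 (19.8%), and in the lower for 8 (5.93%), against 37 of those 308, of which the 135 are part. Of 23 with a mean below 6, they did not overlap for 2 in each direction (8.7%), against 5.36% higher and 5.35% lower of 11878, and 5 had an unadjusted p below 0.05 by limma (21.7%, against 6.58%), 3 higher and 2 lower. These differences in share were not tested.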
